A study of Homo sapiens with 32 samples.

Results

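The proteasome genes described here are the 50 protein-coding genes of GENCODE 44 whose symbol starts with PSMA, PSMB, PSMC, PSMD, PSME, PSMF or PSMG, out of 19970 protein-coding genes on chromosomes 1 to 22 and X. Membership was decided by symbol and not by any value in the data, though the set was chosen with earlier results of these data known. Of the 50, 48 encode subunits, regulators or assembly chaperones of the proteasome, while PSMC3IP and PSME3IP1 are named after a subunit that their product binds and are counted because the symbol fits. The 32 ChIP-seq samples all came from 1 clone, ZD29, of the human embryonic kidney line HEK293T, in which ZNF143 is fused to a degron. On addition of the compound dTAGV-1 a protein with this degron is degraded, which is itself the work of the proteasome. Cells were untreated or had received 50 nM dTAGV-1 for 30 min, and chromatin was recovered through the HA tag on ZNF143, with antibodies to SP1, Nrf1 or YY1, or in a mock precipitation. There were 4 samples per treatment for SP1, for Nrf1 and for YY1, and 2 per treatment for ZNF143 and for the mock. Untreated samples carried the tag too, and cells without it were not analysed here.

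The data were 4 lists of peak summits, 1 per antibody, where a summit is the 1-bp position of the strongest signal in a peak. Each summit carries a score, a p-value or q-value on the −log10 scale. A list holds no value per sample or treatment, so untreated and treated cells were not compared and no result below has a replicate error or a test. The read depth of the samples is unknown, and scores rise with it, so a score is read only within its own list. On chromosomes 1 to 22 and X the lists held 16165 ZNF143, 126181 SP1, 39180 NRF1 and 106578 YY1 summits. A gene was taken to have a summit where 1 lay within 500 bp of its 5′ end, the outermost annotated start of the gene. Intervals are Wilson 95% intervals, cover counting error among genes only, and treat genes as independent, which they are not.

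The 26S proteasome is the protease that degrades proteins marked with ubiquitin. Its 20S core is a barrel of alpha rings, which gate the entrance, around beta rings, which hold the protease sites, and its 19S cap recognises, unfolds and feeds in the substrate by means of a ring of ATPases and a set of non-ATPase subunits. The subunits are made in fixed proportions, and the genes are known to be raised together by NFE2L1, a transcription factor that escapes degradation when the proteasome is inhibited. SP1 binds GC boxes, NRF1 (nuclear respiratory factor 1) a GC-rich palindrome, YY1 a short motif that contains ATGG, and ZNF143 a long site whose full form starts with ACTACA. All of them occupy many promoters of housekeeping genes.

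Sequences that hold the motifs described below are shown first, read from hg38 in the orientation of the motif, 5′ to 3′, with the motif in capitals. The first set shows the 5 members with a ZNF143 score above 1000 and the letters ACTACA within 50 bp of that summit.
PSMD11: agagACTACAactcccggagtgctctggga
PSMD10: cagaACTACAagtcccagggatcctagcga
PSMA2: tagaACTACAacaccccgcatgctcttgga
PSMC4: ttaaACTACActtcccagaagcctcctcag
PSMD2: ggagACTACAattcccagcctcccccgcgc
They lie at chr17:32444390-32444419 (plus strand, untranslated exon of PSMD11), chrX:108091742-108091771 (plus strand, upstream of PSMD10), chr7:42932276-42932305 (minus strand, upstream of PSMA2), chr19:39971099-39971128 (plus strand, upstream of PSMC4) and chr3:184299030-184299059 (minus strand, upstream of PSMD2). The copies run in the direction of the gene in PSMD11, PSMA2 and PSMC4 and against it in PSMD10 and PSMD2.

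The next set shows the NRF1 motif GCGCANGCG at the 4 members that have it within 50 bp of their highest NRF1 summit. The copies lie 1 to 11 bp from that summit.
PSMA4: tatggcccccGCGCATGCGcagaaccgct
PSMC5: ccgtcttggcGCGCAAGCGcggaagcgga
PSMB4: gcttccgttgGCGCAAGCGctttcatttt
PSMD6: ccacacagggGCGCAGGCGcccaggccgg
They lie at chr15:78540418-78540446 (minus strand, untranslated exon of PSMA4), chr17:63827428-63827456 (minus strand, untranslated exon of PSMC5), chr1:151399540-151399568 (plus strand, upstream of PSMB4) and chr3:64023584-64023612 (minus strand, intron of PSMD6). In PSMA4 the motif also reads on the other strand, shifted by 1 bp.

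The last set shows the YY1 motif AANATGGCG where its ATG is an annotated start codon of the gene, which was the case in 7 members. Each copy reads in the direction of its gene.
PSMA2: tcttcgggtaAAGATGGCGgagcgcgggt
PSMB6: ccggaggagaAAGATGGCGgctaccttac
PSMB7: ctttcttgggAAGATGGCGgctgtgtcgg
PSMC3: tcggcaggagAAGATGGCGaccgtgtggg
PSMC5: ctgaagagagAAGATGGCGcttgacggac
PSMD8: cgcatcacgcAAGATGGCGgccgcggcgg
PSMD11: tgagagcggtAAGATGGCGgcggcggcgg
They lie at chr7:42932143-42932171 (minus strand), chr17:4796182-4796210 (plus strand), chr9:124415410-124415438 (minus strand), chr11:47426216-47426244 (minus strand), chr17:63827478-63827506 (plus strand), chr19:38374778-38374806 (plus strand) and chr17:32444511-32444539 (plus strand). Not all of them are at a YY1 summit, and the distances are given with the YY1 scores. In PSMC5 and PSMA2 the highest YY1 summit lay at another copy, which reads against the gene.
PSMC5: ggccacactcAAAATGGCGgaaaacctcg
PSMA2: tccagcagggAAAATGGCGctggccatgc
They lie at chr17:63827144-63827172 (minus strand, untranslated exon) and chr7:42932374-42932402 (plus strand, upstream).

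The proteasome genes had summits of all 4 factors at most of their 5′ ends. A ZNF143 summit was present at 34 of 50 (68.0%, interval 54.2 to 79.2), where the background over all protein-coding genes was 31.7%. An SP1 summit was present at 42 (84.0%, interval 71.5 to 91.7, background 59.1%). An NRF1 summit was present at 35 (70.0%, interval 56.2 to 80.9, background 48.3%). A YY1 summit was present at 41 (82.0%, interval 69.2 to 90.2, background 57.8%). All 4 factors were present at 30 members (60.0%, background 28.1%), and none at 7 (14.0%, background 37.3%). With the 3 longer lists cut to the length of the ZNF143 list, the members' share was 68.0% in the ZNF143 list (all genes 31.7%), 64.0% in the SP1 list (32.7%), 62.0% in the NRF1 list (40.2%) and 76.0% in the YY1 list (36.0%).

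The members' promoters also differed in base composition from those of all genes. The ratio of observed to expected CpG within 500 bp of the 5′ end had a median of 0.739 in members and 0.688 in all genes, and it exceeded 0.6 in 42 members (84.0%) and in 60.1% of all genes. Among genes with a summit of any list, the share above 0.6 was 93.0% of members and 85.9% of all genes. Of the 7 members with no summit, 2 exceeded 0.6, and their median ratio was 0.401. The part of base composition in the shares above was not tested.

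**Figure D1:**
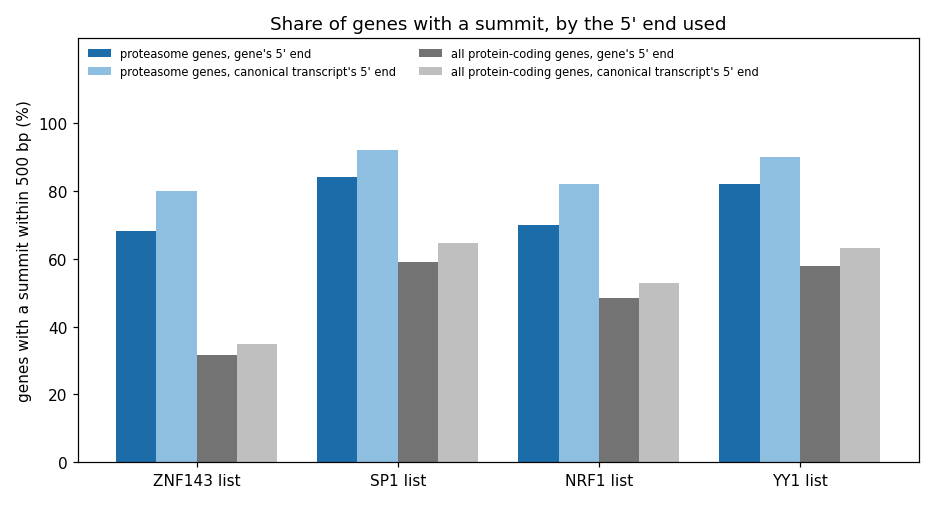
Percent of genes with a summit within 500 bp (vertical axis, from 0) for each list, at the outermost 5′ end of the gene and at the 5′ end of the canonical transcript, for the 50 proteasome genes (blue) and all 19970 protein-coding genes (grey). In each list both blue bars are taller than both grey bars, as with ZNF143 at 68.0% and 80.0% beside 31.7% and 34.8%.

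Of the 7 members with no summit, 3 had summits of all 4 factors at another annotated 5′ end. Annotated genes can begin far upstream of the start that most transcripts use, and in 12 members (24.0%, beside 21.6% of all genes) the 5′ end of the Ensembl canonical transcript lay over 500 bp from the outermost one. At the canonical 5′ end, summits were present at 40 members for ZNF143 (80.0%, beside 34.8% of all genes), 46 for SP1 (92.0%, beside 64.5%), 41 for NRF1 (82.0%, beside 52.8%) and 45 for YY1 (90.0%, beside 63.1%). All 4 factors were then present at 37 members (74.0%, beside 31.6%), and 4 had none (8.00%, beside 33.2%). Of the 48 pairs of a member and a list with no summit at the outermost end, 20 had one at the canonical end. PSMA6, an alpha subunit, begins 13749 bp upstream of its canonical start, and at that start its scores were 12.5 (ZNF143), 196 (SP1), 1191 (NRF1) and 219 (YY1). PSMC2, an ATPase whose canonical start is 19073 bp away, had 9.53, 129, 11.9 and 382 in the same order. PSMF1, which encodes the inhibitor PI31, had 48.5, 698, 32.2 and 1280 at a canonical start 5362 bp away.

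The 4 members with no summit at either end were PSMA8, PSMB8, PSMB9 and PSMB11. PSMA8 is an alpha subunit known from the testis, PSMB11 the beta subunit of the thymus, and PSMB8 and PSMB9 the interferon-induced beta subunits of the immunoproteasome. The 5′ ends of PSMB8 and PSMB9 lie 543 bp apart in the same region of chromosome 6. The nearest summit of any list lay 50045 bp from PSMB8, in the SP1 list. At PSMA8 the nearest summit was an NRF1 summit 1473 bp away, and at PSMB11 an SP1 summit 7206 bp away. At PSMB11, and at PSMB5 near it on chromosome 14, the numbering of the peaks skips 5 numbers in the NRF1 list and 7 in the YY1 list between the flanking summits. Those summits are 227612 bp apart in the NRF1 list and 98840 bp apart in the YY1 list. The skipped numbers are read as peaks removed after calling, and where in these spans they lay is unknown. Absence from those 2 lists therefore cannot be read at these genes.

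**Figure D2:**
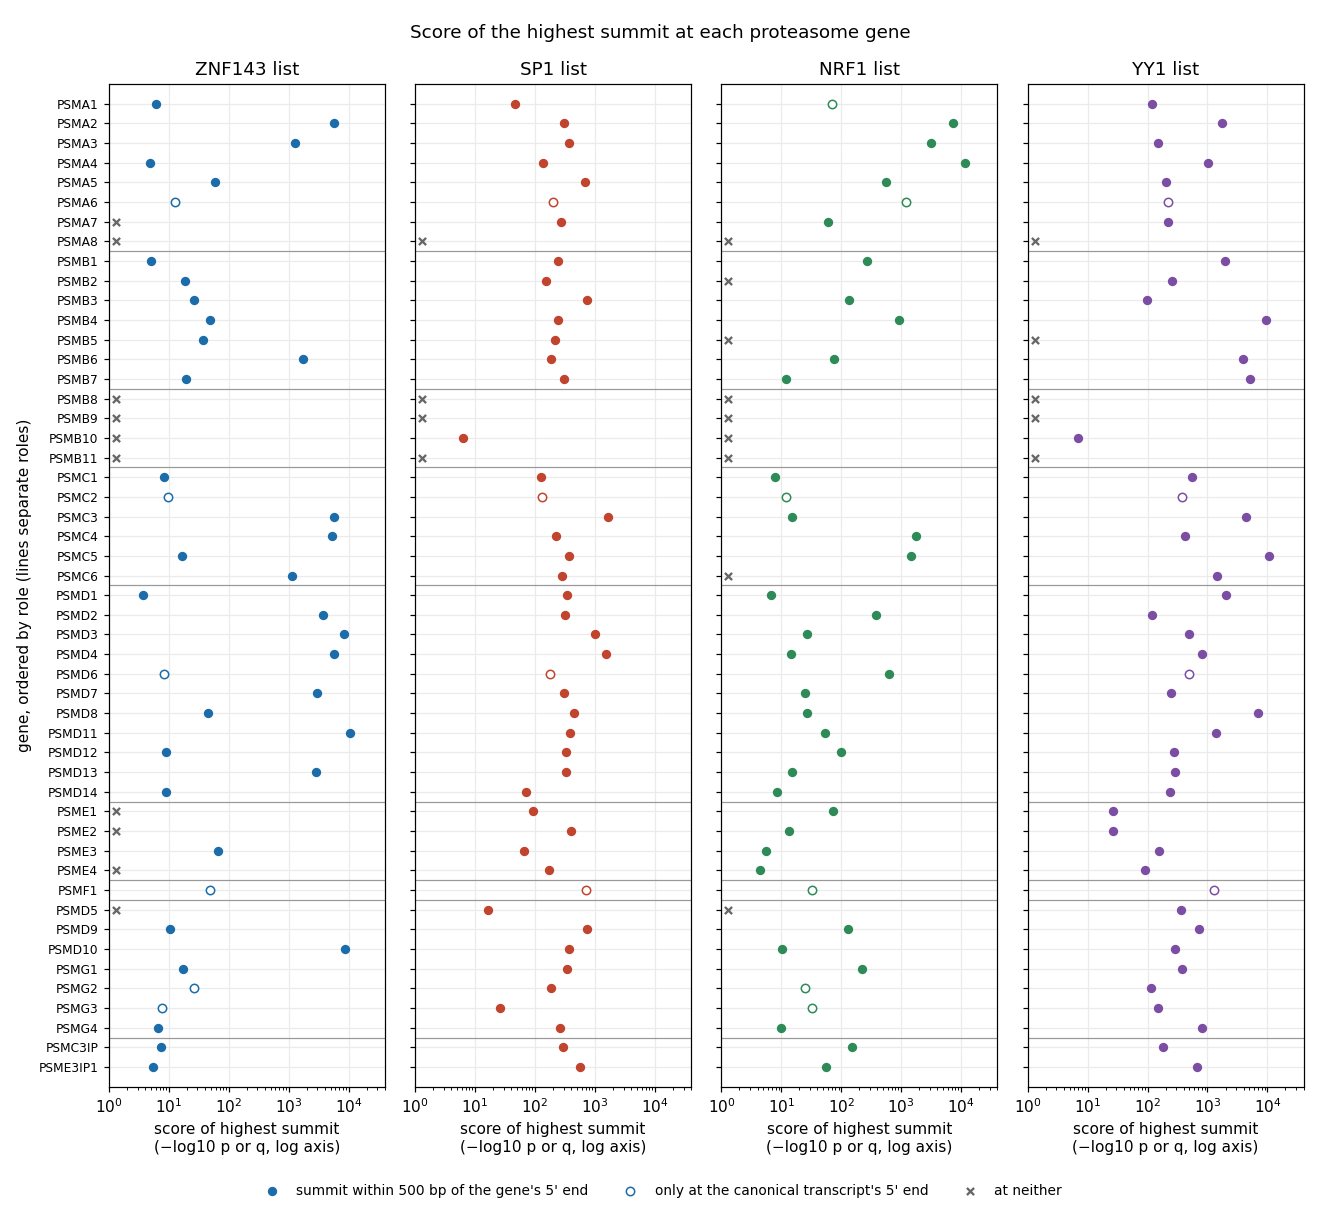
Score of the highest summit of each of the 50 proteasome genes (rows, ordered by role with lines between roles) in each list (panels), on a log axis in −log10 of p or q. Filled points are summits within 500 bp of the outermost 5′ end, open points are found only at the canonical 5′ end, and crosses at neither. The crosses gather at PSMA8, PSMB8, PSMB9 and PSMB11, and ZNF143 points fall into a group of up to 66.5 and a group from 1141 upwards.

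Among the subunits of the cap and the core, the 19S non-ATPase genes most often had all 4 factors. Of the 11 non-ATPase subunits, 10 had all 4 factors, and the exception, PSMD6, had an NRF1 summit alone (634, offset +409). The nearest summits of the other 3 lists lay 503 bp (SP1), 536 bp (ZNF143) and 620 bp (YY1) from its outermost end, and at its canonical start, 516 bp inside the gene, it had 8.21 for ZNF143, 179 for SP1 and 492 for YY1. Offsets are given in bp from the outermost 5′ end, negative upstream. Of the 6 ATPases, PSMC1, PSMC3, PSMC4 and PSMC5 had all 4 factors, PSMC6 lacked NRF1 at either end, and PSMC2 is described above.

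In the 20S core, 4 of 8 alpha genes had all 4 factors, PSMA2, PSMA3, PSMA4 and PSMA5. PSMA7 lacked ZNF143 at either end and had 271 for SP1, 60.4 for NRF1 and 218 for YY1. PSMA1 lacked NRF1 at its outermost end, where its ZNF143 score was 6.16, and at the canonical start 123249 bp away its scores were 23.6 (ZNF143), 848 (SP1), 70.2 (NRF1) and 340 (YY1). The outermost end of PSMA1 is 169 bp from that of PDE3B, which is read in the other direction, so summits there cannot be given to either gene. Of the 7 constitutive beta genes, 5 had all 4 factors. PSMB2 lacked NRF1 at either end and had 18.9 for ZNF143, 155 for SP1 and 253 for YY1. PSMB5, which encodes the chymotrypsin-like subunit, had only ZNF143 (37.7, offset +240) and SP1 (215, offset +224), with NRF1 and YY1 unreadable as described. PSMB10, the interferon-induced counterpart of the trypsin-like subunit, was the only one of the 4 inducible or tissue-specific beta genes with a summit, at scores of 6.37 for SP1 and 6.85 for YY1, which placed it in the top 71.3% and the top 71.6% of those lists.

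Among the regulators, 1 of the 4 activators had a ZNF143 summit, a share close to the 31.7% of all genes. PSME1 and PSME2, the interferon-induced PA28 subunits, and PSME4, the activator PA200, had SP1, NRF1 and YY1 but no ZNF143 at either end. PSME3, the nuclear activator PA28 gamma, had all 4, with a ZNF143 score of 66.5 at the outermost end and 155 at the canonical start 9012 bp away, where its NRF1 score was 2377. Of the 7 assembly chaperones, PSMD9, PSMD10, PSMG1 and PSMG4 had all 4 factors, while PSMD5, PSMG2 and PSMG3 had only SP1 and YY1. PSMG2 and PSMG3 gained both missing factors at the canonical start, with ZNF143 scores of 26.5 and 7.64 and NRF1 scores of 24.7 and 32.4, and PSMD5 gained neither. PSMC3IP and PSME3IP1 had all 4.

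ZNF143 scores of the members fell into a strong and a weak group, and those of all genes with a summit had 2 peaks as well. Over all genes, the bins from 0.75 to 1, 2.5 to 2.75 and 3.5 to 3.75 in log10 of the score held 14.5%, 2.17% and 5.68%. Of the 34 members with a ZNF143 summit, 13 scored above 1000 (38.2%, beside 23.7% of all genes with a summit), from 1141 at PSMC6 to 10688 at PSMD11. The other 21 scored from 3.76 at PSMD1 to 66.5 at PSME3. None lay between 66.5 and 1141, a range that held 806 (12.7%) of the 6323 genes with a ZNF143 summit. The bounds are those of the members' own gap, and at the canonical 5′ end PSME3, at 155, falls inside it. The 3 highest were PSMD11, a scaffold subunit of the 19S lid (10688, offset +48), PSMD10, the chaperone gankyrin (8570, offset −153), and PSMD3, another lid subunit (8439, offset −18). They fell in the top 2.36%, 3.11% and 3.17% of the list.

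The 19S cap supplied 9 of the 13, and it is a large part of the members. A ZNF143 summit was at 5 of its 6 ATPase genes and 10 of its 11 non-ATPase genes. PSMD4, a ubiquitin receptor of the cap, scored 5751 (offset −37). PSMD2, a large scaffold of the base, scored 3689 (−154), PSMD7 2939 (−26) and PSMD13 2887 (−20). Of the ATPases, PSMC3 scored 5628 (−112), PSMC4 5322 (−38) and PSMC6 1141 (+38). The core supplied PSMA2 (5736, −93), PSMA3 (1291, −73) and PSMB6 (1752, −22). The remaining one was PSMD10. The other members of the same rings were low: PSMA4 scored 4.82, PSMB1 5.13 and PSMC1 8.36, and the deubiquitinase PSMD14 scored 9.09. Subunits of the same ring thus had very different scores in this list. The offsets of the 13 strong summits ran from −154 to +48.

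**Figure D3:**
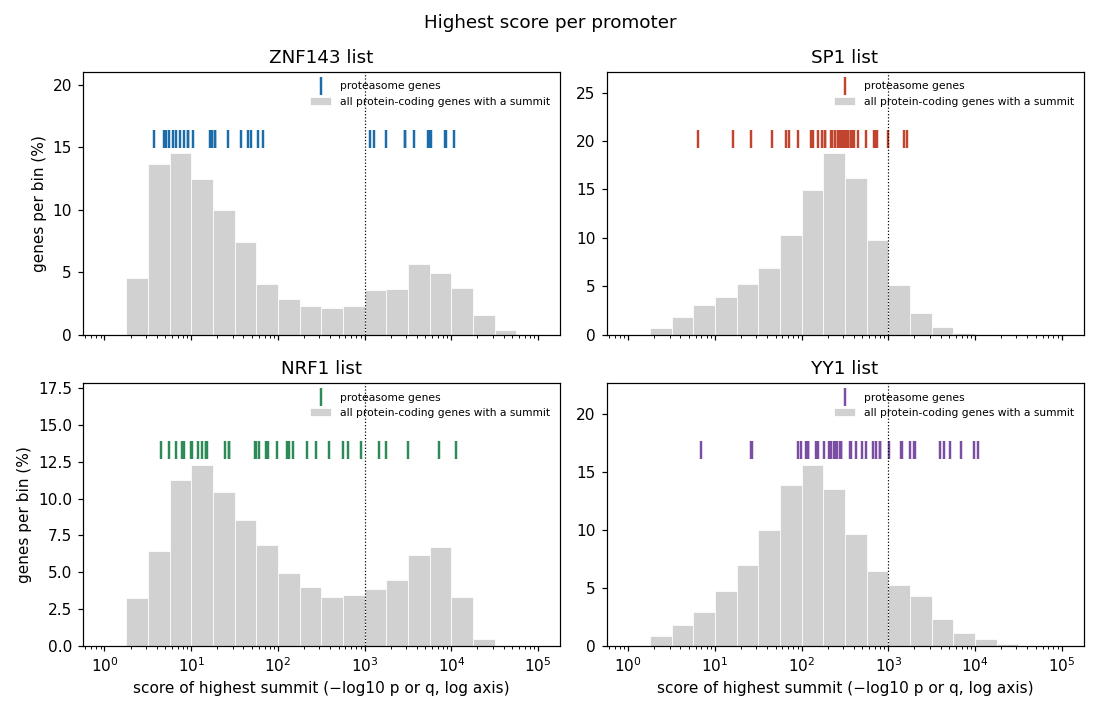
Distribution of the highest score per promoter in each list (grey bars, percent of all protein-coding genes with a summit per bin, log axis in −log10 of p or q), with a tick for each proteasome gene and a dotted line at 1000. ZNF143 ticks leave the span from 66.5 to 1141 empty, and SP1 ticks crowd between 100 and 1000, where 33 of 42 lie.

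The letters CCCANNATG, the inner part of the ZNF143 site, were found at 0 of the 13 strong ZNF143 summits, within 50 bp on either strand with no mismatch, beside 15.3% of the 1497 genes of that score. Over all 34 members with a summit the motif was at 1, PSMB3, whose score was 26.5 (2.94%, interval 0.521 to 14.9, beside 5.39% of all genes with a summit). With 1 mismatch allowed it was at 8 of the 13, beside 57.5% of genes of that score, and at 3 of the 21 weak members, beside 20.8%. The letters ACTACA, looked for after the sequences at the members were seen, were at 5 of the 13 strong members, those shown above, beside 45.4% of strong genes. They were at 1 of the 21 weak members, PSMC3IP, beside 1.54% of weak genes. PSMC3 was the only strong member with neither ACTACA nor CCCANNATG with up to 1 mismatch. Copies of CCCANNATG occurred in the wider promoters of 12 members (24.0%, beside 14.2% of all genes), and 11 of the 12 copies were more than 50 bp from any ZNF143 summit.

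YY1 summits of the members ranked high in their list. The highest YY1 summit of the 41 members with one fell at a median of the top 4.15% of the list, beside 10.2% for all genes with a YY1 summit, and 33 members (80.5%, beside 49.3%) were in the top 10%. Scores above 1000 were found at 12 members (29.3%, beside 13.7%). The 3 highest were PSMC5, an ATPase (10667, offset +44, top 0.0676%), PSMB4, a beta subunit without protease activity (9606, offset −69, top 0.0854%), and PSMD8, a lid subunit (6965, offset −88, top 0.142%). The others were PSMB7 (5147, +46), PSMC3 (4433, +174), PSMB6 (3913, +24), PSMD1 (2016, −205), PSMB1 (1956, +44), PSMA2 (1777, −215), PSMC6 (1445, +99), PSMD11 (1393, +153) and PSMA4 (1024, +111). Of the 12, 4 encode beta subunits: PSMB6 and PSMB7 carry the caspase-like and the trypsin-like site, and PSMB1 and PSMB4 carry no protease site. The lowest score was 6.85, at PSMB10.

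The motif AANATGGCG lay within 50 bp of the highest YY1 summit in 5 members (12.2%, interval 5.32 to 25.5, beside 6.56% of all genes with a summit). These were PSMA2, PSMB6, PSMB7, PSMC5 and PSMD11, and all scored above 1000. In that score class the motif was at 5 of 12 members (41.7%) and at 34.8% of all genes. The promoters of 8 members held the motif (16.0%, beside 7.54% of all genes), in 10 copies. In 7 of these copies (70.0%) the ATG of the motif was the annotated start codon, as printed above, whereas this held for 25.8% of the 1600 copies in all promoters. A start codon inside the motif was thus found in 7 of 50 members (14.0%) and in 2.06% of all genes. A YY1 summit lay 5 bp from the start codon copy in PSMA2, 7 bp in PSMD11, 25 bp in PSMD8, 26 bp in PSMB7 and 28 bp in PSMB6. In PSMC3 the nearest summit was 69 bp away and in PSMC5 296 bp. The highest summit of PSMC5 lay instead 38 bp from the other copy printed above, and that of PSMA2 lay 12 bp from an upstream copy. PSMA2 also had a second YY1 summit (1659, offset +33), and PSMD8 had one (3993, offset +254), both beside their start codons.

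NRF1 scores above 1000 were less frequent among members with a summit than among all genes with one. They were found at 5 members (14.3%, beside 25.1% of all genes with an NRF1 summit), and the top 10% of the list held 9 (25.7%, beside 31.2%). Over genes with or without a summit, 5 of 50 members scored above 1000, beside 12.1% of all genes. The top 10% then held 9 of 50 members, beside 3013 of 19970 genes. At the canonical 5′ end 7 of 50 members scored above 1000, beside a similar share of all genes (2696 of 19970). Among genes with a summit there, these were 7 of 41 members, beside 2696 of 10551 genes. The 5 at the outermost end were PSMA4 (11447, offset +37, top 0.699%), PSMA2 (7250, offset −53, top 2.04%), PSMA3 (3164, offset −118, top 4.84%), PSMC4 (1762, −164) and PSMC5 (1453, +291). The 3 highest encode alpha subunits. A further 9 members scored between 100 and 1000, led by PSMB4 (909, −17), PSMD6 (634) and PSMA5 (567, −37), and 21 scored below 100, down to 4.44 at PSME4.

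The exact NRF1 motif was at 4 members (11.4%, interval 4.54 to 25.95, beside 21.8% of all genes with a summit), and these 4 were the only members with a copy anywhere within 500 bp of the 5′ end (8.00%, beside 14.6% of all genes). With 1 mismatch allowed, the motif was at all 14 members that scored at least 100. The share of all genes was 94.5% above 1000 and 73.7% between 100 and 1000. Below 100 it was at 5 of 21 members, beside 29.5%.

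The name Nrf1 is used for 2 proteins, nuclear respiratory factor 1 and NFE2L1, of which the second is the known activator of these genes, so the list was compared with the motif of each. GCGCANGCG was within 50 bp of 7.26% of all summits in the list and in 0.288% of windows 400 bp to either side, and of 79.3% of the 1000 highest summits. TGACNNNGC, the core of the antioxidant element to which NFE2L1 binds, was at 3.83% of summits and in 3.32% of the flanking windows, and at 5.40% of the 1000 highest. In the members' promoters TGACNNNGC was found in 29 (58.0%, beside 34.2% of all genes), in 45 copies. Of these copies 2 had their centre within 50 bp of an NRF1 summit, at PSMB6 (12 bp) and PSMD7 (43 bp), whereas all 5 copies of GCGCANGCG did. The list is called NRF1 here on the shares of the motifs at its summits over the whole list.

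SP1 was present at 42 members in its full list, the longest of the 4, and at 32 with equal list lengths, when YY1 was at 38 and ZNF143 at 34. Only PSMC3 (1643, offset +31, top 0.913%) and PSMD4 (1513, offset −9, top 1.05%) scored above 1000 (4.76%, beside 8.45% of all genes with a summit), followed by PSMD3 (991, offset −27, top 1.97%). Over genes with or without a summit, 2 of 50 members exceeded 1000, beside 5.00% of all genes. Another 33 members, PSMD3 among them, scored between 100 and 1000, and 27 (64.3%, beside 45.2%) were in the top 10% of the list. The lowest were PSMB10 (6.37), PSMD5 (16.2), PSMG3 (25.7) and PSMA1 (46.0). GGGCGG was within 50 bp of the highest summit in 17 members (40.5%, interval 27.0 to 55.5), beside 43.4% of all genes with a summit. Within 500 bp it was in 42 members (84.0%) and 72.0% of all genes.

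High scores of different factors fell on partly different genes. Scores above 1000 in at least 1 of the ZNF143, NRF1 and YY1 lists were found at 20 members (40.0%) and at 21.9% of all genes. PSMA2, whose 5′ end is 29 bp from that of another gene, exceeded 1000 in all 3 (2%, beside 0.566% of all genes). PSMA3 and PSMC4 did so for ZNF143 and NRF1 (4%, beside 1.49%), and PSMA4 and PSMC5 for NRF1 and YY1 (4%, beside 1.57%). PSMB6, PSMC3, PSMC6 and PSMD11 did so for ZNF143 and YY1 (8.00%, beside 1.46% of all genes). In 6 members ZNF143 alone of these 3 lists exceeded it, namely PSMD2, PSMD3, PSMD4, PSMD7, PSMD10 and PSMD13 (12%, beside 3.98%). In 5 members YY1 alone of the 3 did, namely PSMB1, PSMB4, PSMB7, PSMD1 and PSMD8 (10%, beside 4.35%), and in 0 NRF1 alone (beside 8.51%). At the canonical 5′ end NRF1 alone of the 3 exceeded 1000 at PSMA6 (1191) and PSME3 (2377). The SP1 list is left out of these sets, and PSMC3 (1643) and PSMD4 (1513) exceeded 1000 there too. The value of 1000 is not the same depth of signal in each list, as it was exceeded by 11.9% of ZNF143, 7.71% of NRF1 and 1.73% of YY1 summits.

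Summits of the members lay close to the 5′ end. The median offset of ZNF143 was −29 bp (all genes with a summit −19 bp), that of SP1 −30 bp (−38 bp), that of NRF1 −27 bp (−29 bp) and that of YY1 −2 bp (+60 bp). The share within 100 bp was 67.6% for ZNF143 (all genes 47.4%), 64.3% for SP1 (52.8%), 57.1% for NRF1 (46.7%) and 43.9% for YY1 (35.2%). YY1 summits were downstream of the 5′ end in 20 of 41 members (48.8%), beside 61.5% of all genes. The outermost positions were −326 bp (PSMA5) and +419 bp (PSMG4) for ZNF143, −306 (PSMD13) and +373 (PSMG4) for SP1, −298 (PSME4) and +409 (PSMD6) for NRF1, and −337 (PSMA1) and +447 (PSMA7) for YY1. PSMG4, PSMA1 and PSMD6 are among the members whose outermost end is over 500 bp from the canonical one.

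**Figure D4:**
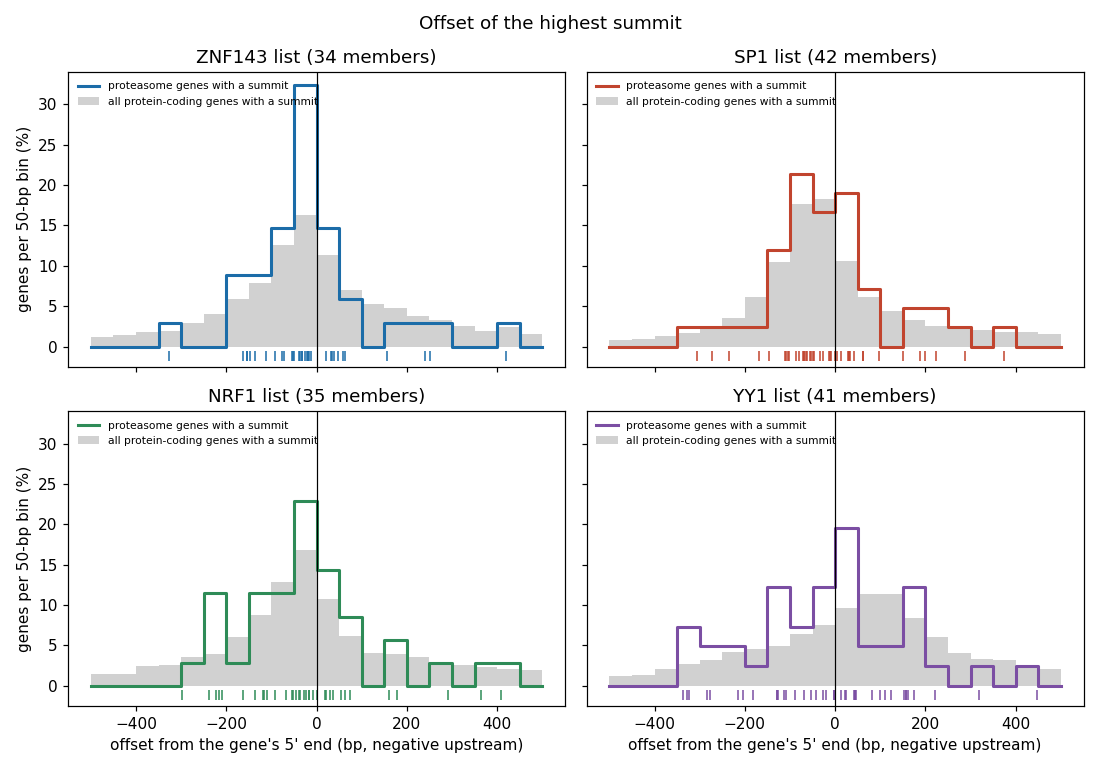
Offset of the highest summit from the outermost 5′ end (bp, negative upstream) in 50-bp bins, as percent of the proteasome genes with a summit (coloured line) and of all protein-coding genes with one (grey bars), with a tick for each member. The ZNF143 line peaks just upstream of 0, with 67.6% of members within 100 bp, and the YY1 line is spread to both sides, with 43.9%.

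Within one promoter, ZNF143 and SP1 summits were the closest pair. The median distance between their highest summits was 39 bp over the 34 members with both, beside 55 bp over 6184 genes. It was 61 bp between ZNF143 and YY1 (all genes 70), 96 bp between SP1 and YY1 (99), 98 bp between SP1 and NRF1 (102), 119 bp between ZNF143 and NRF1 (111) and 154 bp between NRF1 and YY1 (152). At PSMD3 the ZNF143 and SP1 summits were 9 bp apart, at −18 and −27.

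Some of these promoters are shared. In 15 members (30.0%, beside 17.4% of all genes) another protein-coding gene begins within 1000 bp, and in 6 (12%, beside 7.98%) the pair is read away from each other from separate starts. These are PSMA1 with PDE3B (169 bp), PSMA7 with SS18L1 (329 bp), PSMB1 with TBP (995 bp), PSMD10 with ATG4A (119 bp), PSMD13 with SIRT3 (35 bp) and PSME3IP1 with RSPRY1 (21 bp). A further 6 (12%, beside 4.72%) begin on opposite strands and overlap, PSMB8 and PSMB9 with each other and PSME2, PSME4, PSMG2 and PSMG4 with other genes. PSME4 begins 155 bp from ACYP2, and the outermost ends of PSMG2 and PSMG4 lie 64 bp from SPIRE1 and 327 bp from TUBB2B. PSMA2, PSMB10, PSMD9 and PSME2 lie within 1000 bp of a gene with no symbol in the annotation. The 5′ end of PSMA2 is 29 bp from that of such a gene. The strong ZNF143 summits of PSMA2, PSMD10 and PSMD13 can therefore not be given to 1 gene, nor can the NRF1 and YY1 summits of PSMA2. Only the nearest other gene was looked up, so further neighbours within 1000 bp were not listed. The PSMD13 summit (2887, offset −20) lies within the 35 bp between its 5′ end and that of SIRT3.

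Motifs of 2 further factor families known at housekeeping promoters were searched within 500 bp. The ETS core CCGGAAG was in 18 members (36.0%, beside 20.8% of all genes) and CCAAT in 34 (68.0%, beside 65.7%). All motifs were searched on both strands. No motif contains another, though copies of different motifs can share bases, and a match describes letters and not a bound site.

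A list of 26 genes of the same pathway outside the symbol rule gave the following counts. It holds proteasome partners, genes of the NFE2L1 response, and ubiquitin genes. ZNF143 was at 19 of the 26 (background over all genes 31.7%), SP1 at 25 (59.1%), NRF1 at 22 (48.3%) and YY1 at 24 (57.8%). All 4 factors were at 16 (28.1%), and 0 of the 26 had no summit (37.3%). SEM1, the smallest 19S subunit, had a ZNF143 score above 1000 as several PSMD genes did (1294, offset −24), with 119 for SP1, 3.76 for NRF1 and 227 for YY1. ADRM1, also a ubiquitin receptor of the cap, had SP1 (120, offset −37) and YY1 (96.1, offset −94) at its outermost end, and at its canonical end SP1 (723), NRF1 (42.1) and YY1 (160). POMP, the maturation factor of the 20S core, scored 5.61 (ZNF143), 196 (SP1), 125 (NRF1) and 284 (YY1). At NFE2L1 itself the YY1 score was 4893 (offset −434) and the SP1 score 1456 (offset −116), with 104 for ZNF143 and 6.91 for NRF1.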

How the data were processed

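Summit lists from ChIP-seq of 32 samples in 10 groups were used as deposited, 1 list per antibody. The SP1 and ZNF143 lists are named in the labels of untreated and treated samples alike, and the NRF1 and YY1 lists were assigned by the antibody in their names. From its values, the score that the authors deposited in column 5 is on the −log10 scale of a p-value or a q-value, and which of them is not stated. Cutadapt, Bowtie2, SAMtools 1.16.1, MACS3 and bedtools on hg38 are named in the submitters' processing notes. The peak numbering skips 1315 numbers in the SP1, 1380 in the NRF1, 11467 in the YY1 and 0 in the ZNF143 list, so the first 3 were filtered after calling.

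Summits on chromosomes 1 to 22 and X were compared with GENCODE 44 and hg38 in Python 3.11.15 with pandas 2.3.3, numpy 2.4.6 and scipy 1.17.1. The highest-scoring summit within 500 bp of a gene's outermost 5′ end gave its offset, score and top percent, which is 100 times the rank divided by the number of summits in the list. Motifs had to lie wholly within 50 bp of that summit with 0 mismatches. The script was tested on simulated data. No statistical test was possible, since the lists hold no value per sample, and members are set beside all protein-coding genes. Alternatives changed the window, the 5′ end, the list length, the score minimum, the motif search and the members.

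The members, motifs and gene lists were chosen with earlier results of these data known. Values are given for the 3 best ranks per list, constitutive subunits lacking a list, members with no summit, the extreme offsets, shared promoters, each role, and NFE2L1, POMP, ADRM1 and SEM1. Members with scores above 1000, PSMB10, PSME3 and some low scores were added to these after their values were seen.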

Additional observations from a re-analysis of the deposited data

How the results depend on the processing

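No paired analysis was possible because the lists hold no value per sample. There were 179 values recomputed under 14 other settings, 3 of them chosen after seeing the data. A count was taken to stay if it was within 1.5 times of the reported one. A median stayed if it was within the 95% interval of the reported median, taken from the ordered values of the members. By these limits 160 stayed and 19 moved. The members with all 4 factors numbered 19 with the top 50% of each list by score, since fewer summits were left. The median SP1 offset was −73 bp at the canonical 5′ end, and it was −73 bp there for all genes with a summit too. Median top percents are relative to the length of the list. With the top 50% of each list they rose to 15.9 for SP1, 31.0 for NRF1 and 8.14 for YY1, while that of ZNF143 was 21.9, and with equal list lengths 57.1 for SP1, 37.1 for NRF1 and 24.9 for YY1. With a score of at least 5 the SP1 value was 10.4. Motif counts moved most. With 1 mismatch ZNF143 had 11, SP1 35, NRF1 19 and YY1 13. Within 25 bp they were 0 for ZNF143, 10 for SP1 and 2 for YY1. ZNF143 had 7 with ACTACA or CCCANNATG, SP1 had 10 without members near another 5′ end, since fewer members were left, and NRF1 had 2 with summits within 250 bp of the 5′ end, since those of PSMC5 and PSMD6 lie further away. Depth is unknown, so absence from a list is not absence of the factor, and the lists differ in length and in filtering.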

Other observations

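The rest of the pathway list held some of the highest scores. AKIRIN2, which brings proteasomes into the nucleus, had a ZNF143 score of 18151 (offset −149, top 0.749%) and an NRF1 score of 11296 (offset −86, top 0.7504%). RAD23B, a shuttle factor that carries ubiquitin chains to the cap, had an NRF1 score of 6300 beside a ZNF143 score of 9.09. UBQLN1, another shuttle factor, had 4626 for ZNF143 and 3721 for NRF1. PAAF1, a chaperone of the ATPase ring, had 3036 for NRF1 at an offset of 0 bp, and USP14, a deubiquitinase of the cap, had 2330 for NRF1 with no ZNF143 summit. Of the 26 genes, 6 had a score above 1000 in the ZNF143 list (beside 7.496% of all genes), 4 in the SP1 list (beside 5.00%), 9 in the NRF1 list (beside 12.1%) and 7 in the YY1 list (beside 7.95%).

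Of the ubiquitin genes, UBB, which encodes a chain of ubiquitin units, had 2063 for SP1 and 1987 for NRF1. RPS27A, which fuses ubiquitin to a ribosomal protein, had 8004 for ZNF143 at an offset of +491 bp, and UBA1, the main ubiquitin-activating enzyme, had 9094 at −145 bp from its outermost 5′ end but 2.11 at its canonical one. These genes were named after their values were seen.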
